A study of Oryza sativa with 25 samples.

Results

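Growing callus was compared with root, the 2 groups being chosen by sample title: 3 arrays of growing callus and 3 arrays of root out of the 25 arrays of the series. The series measured transcript levels in rice (Oryza sativa) with the Affymetrix Rice Genome Array, in callus before and during regeneration and in root, shoot and young leaf, the organs serving as references for reproductive samples. Control probe sets, whose identifiers start with AFFX or RPTR, were left out. The callus was unorganised tissue raised from seeds on MS medium (a standard plant culture medium) for 3 weeks at 30 °C, and the growing callus carries no days on regeneration medium in its labels. The root samples were whole roots of greenhouse plants, described as mature root and taken while leaf number 4 was growing. No genotype, cultivar or agent separates the groups in the labels, and all 6 samples are described as biological replicates. Growing callus replicate 2 received an excess of poly(A) control RNA by accident, according to its label. Tissue, growth place and medium differ together between the groups and cannot be told apart.

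Callus forms when cells of a cultured explant resume division under auxin, and rice callus raised from the scutellum of the seed can form embryo-like structures and whole plants. It takes its sugar and mineral salts from the medium. A root, in contrast, is made of differentiated layers. Its epidermis and hairs take up water and ions, its exodermis and endodermis are sealed by Casparian strips and suberin, and its xylem cells carry lignified secondary walls. Rice roots are known for the uptake of silicon through a channel and an exporter in these sealed layers, and for transporters of ammonium, phosphate and metals.

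Levels are deposited intensities, in which 1 is the 75th percentile over all probe sets of an array. Changes are on the log2 scale after a pseudocount of 0.0274 and quantile normalization, callus minus root, with the standard error of the fit. They can therefore differ slightly from the ratio of the levels. Log2 values of 2 callus arrays correlated at 0.971 to 0.978 across probe sets and those of 2 root arrays at 0.970 to 0.983, while a callus and a root array correlated at 0.679 to 0.736. Of 13 root markers, 9 were matched to a gene by name, while RCC3, RCC2, NAR2.1 and NRT2.1 found no match. Their summed level was 8.48 to 11.8 in callus and 199 to 232 in root, of which Lsi1 alone gave 146 to 150.3. Lsi1, Lsi2, OsHAK1, OsPIP2;5 and OsCslD1 among them fell in callus, but OsSHR1 and OsWOX9 (also called QHB, a regulator of the root stem cell niche) rose. Of 8 green-tissue markers, 4 were matched (CAB2R, OsrbcS, PETE and OsrcaA1). These summed to 1.07 to 1.17 in callus and 1.59 to 1.69 in root, against 223 to 308 in young leaf, and none of the 4 was called. The 7 genes of the dividing-cell markers summed to 29.0 to 38.8 in callus and 10.3 to 18.1 in root. Of 12 embryo-like callus markers, 7 were matched, and these summed to 26.7 to 178 in callus and 3.73 to 10.1 in root. Most of the highest embryo-like sum came from EM (66.1) and RAB21 (92.3) in callus replicate 1. OsWOX9 was counted among both the root and the embryo-like markers. In whole tissue, fewer cells of a type and less RNA per cell cannot be told apart.

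The comparison asked which transcripts separate proliferating callus from a differentiated organ. Of 37218 probe sets tested, 12643 (34.0%) differed by at least 2-fold at an adjusted p under 0.05 in limma's moderated test with Benjamini-Hochberg adjustment; 6678 (17.9%) were higher in callus and 5965 (16.0%) lower. A probe set past both limits is called risen or fallen in callus. The 2 groups' arrays did not overlap in 67.3% of the probe sets. Rises were more numerous but smaller. Their median was 1.52, against -1.89 for the falls. Past 16-fold there were 216 rises and 563 falls. With 1 probe set a gene, 4006 of 16836 genes (23.8%) rose and 3308 (19.6%) fell, 43.4% in either direction, and the median change over all genes was 0.19. Among the 2349 genes with a name, from which the gene lists below were drawn, 23.5% rose and 23.3% fell. The callus and root arrays did not overlap for 73.1% of all 16836 genes, so a lack of overlap is common in this comparison. The callus mean lay under the average of the callus array medians in 2433 of the falls, and the root mean under that of the root arrays in 2159 of the rises; in such genes the size of a change depends on the pseudocount. Without quantile normalization the median change of all probe sets moved from 0.09 to -0.13, and falls (6462) then outnumbered rises (5821).

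**Figure D1:**
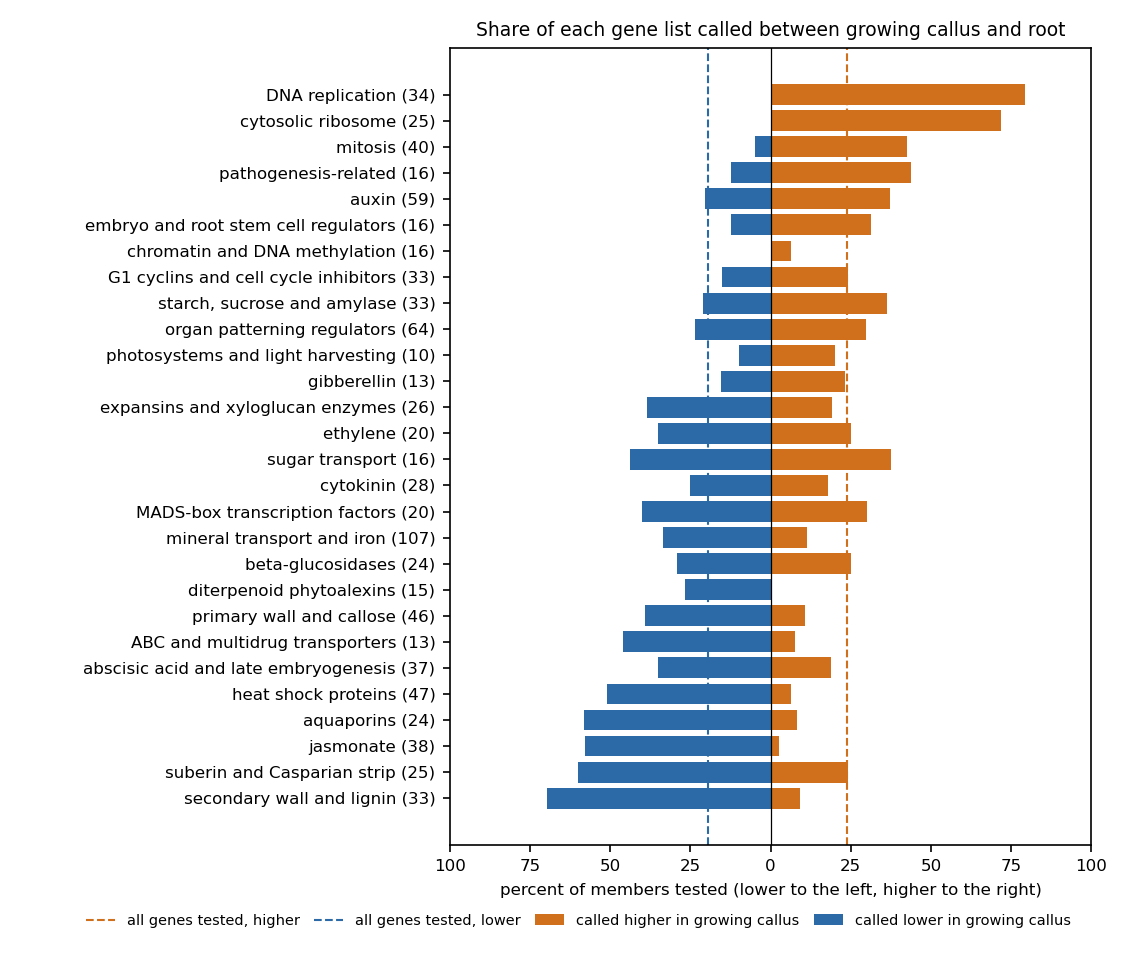
Percent of the tested members of each gene list (number tested in brackets) that rose in growing callus, to the right, and that fell, to the left, for lists with at least 10 tested members, ordered by the median log2 change. Dashed lines mark the shares among all 16836 genes, 23.8% higher and 19.6% lower. Among the 2349 named genes, from which the lists were drawn, the shares were 23.5% and 23.3%. DNA replication and the cytosolic ribosome have the largest risen shares and no fallen member, and the secondary wall list has the largest fallen share.

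Genes of DNA replication and of the cytosolic ribosome had the largest shares of risen members among the lists described. Of 34 replication genes, 27 rose, 0 fell and 7 were not called; the median change was 1.59. OsMCM2, a subunit of the helicase that opens replication origins, stood at 7.43, 9.74 and 7.43 in the 3 callus arrays, against 1.89, 1.73 and 1.09 in the 3 root arrays (log2 change 2.28 ± 0.20, adjusted p 1.2e-09). OsRPA32-3, a subunit of the complex that binds single-stranded DNA, averaged 3.49 ± 0.28 in callus and 0.389 ± 0.028 in root (SD, n = 3 each), with a log2 change of 3.36. In both genes all callus arrays lay above all root arrays. Of 8 MCM genes, 6 rose and OsMCM8 (0.28) and OsMCM9 (0.92) did not pass, and 4 of 5 genes of the origin recognition complex rose.

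Of 25 genes of the cytosolic ribosome, 18 rose and 0 fell, with a median of 1.29. RPS7, a protein of the small subunit, stood at 38.5, 38.1 and 34.1 in callus, against 9.84, 13.6 and 6.42 in root. RPS15, also of the small subunit, averaged 48.5 ± 2.1 in callus and 14.3 ± 3.7 in root (SD, n = 3 each). The groups did not overlap in 24 of the 25 genes, against 73.1% of all genes. No ribosomal gene in the list rose by more than 1.90 (rps20).

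The mitosis list takes in several classes of kinesins by name, and a role in mitosis was not checked for each member. Of its 40 genes, 17 rose and 2 fell, with a median of 0.86. Without root replicate 3 the number that rose was 11. CDKB2-1, a kinase of the entry into mitosis, stood at 5.47, 6.82 and 5.77 in callus, against 2.58, 2.62 and 1.44 in root (log2 change 1.35 ± 0.21). CYCB1-1 and CYCB2-2, mitotic cyclins, and OsPCNA, the sliding clamp of DNA polymerase, rose by about 2-fold (1.06, 1.01 and 1.02), which is close to the limit. Each of these 3 lost its call without callus replicate 2 and also without root replicate 3. Kinesins were among the rises, such as KIN14I (2.33) and KIN14E (1.83). The 2 falls were also kinesins, KIN14B (-1.81) and KIN4A, which averaged 0.767 ± 0.121 in callus and 3.86 ± 0.79 in root.

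Among G1 cyclins and cell cycle inhibitors, 8 of 33 rose and 5 fell (median 0.42), shares near those of all genes. CYCD3-2, a D-type cyclin of the entry into the cycle, stood at 5.33, 9.72 and 6.49 in callus, against 0.516, 0.605 and 0.248 in root, a log2 change of 4.15 ± 0.31. OsRBR1, the retinoblastoma-related protein that D-type cyclins act on, rose by 3.71. On the other side were 2 of the 4 KRP genes, inhibitors of cyclin-dependent kinases. KRP1 stood at 0.524, 0.314 and 0.924 in callus, against 1.73, 1.61 and 1.56 in root, and KRP6 fell by 1.64. KRP4 (0.43) and KRP5 (0.42) did not pass. The 2 largest falls of the list were CYCP2-1 (-3.56) and CYCP4-1 (-2.73), both P-type cyclins.

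The largest rise of a named gene was OsTDL1B, encoding a small secreted protein related to the Arabidopsis anther regulator TPD1. It stood at 122, 169 and 116 in callus, against 0.200, 0.218 and 0.222 in root (log2 change 9.46 ± 0.18, adjusted p 6.1e-21). OsMADS1, an E-class MADS-box factor of the flower, had 36.9, 37.4 and 28.3 in callus, against 0.171, 0.208 and 0.284 in root. In both genes the groups were far apart, the lack of overlap being a condition of their choice. OsMADS5, a relative of OsMADS1, rose by 5.07, with 5.88 ± 2.04 in callus and 0.182 ± 0.008 in root (SD, n = 3 each).

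The whole MADS-box list was split, with 6 genes up and 8 down among the 20 that passed the filter on low values, out of 31 on the array (median -0.35). The falls included OsMADS18, a relative of the floral-transition factor APETALA1 of Arabidopsis, which averaged 0.165 ± 0.043 in callus and 4.18 ± 0.31 in root, OsMADS56 (-3.80) and OsMADS26 (-2.77). OsMEL1, an Argonaute protein known from rice germ cells, had 8.31, 17.6 and 14.8 in callus, against 0.292, 0.359 and 0.366 in root. Roc2, a homeodomain factor of a class known from the epidermis, rose by 5.78 ± 0.19.

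Of 16 embryo and root stem cell regulators, 5 rose and 2 fell (median 0.51). These shares were 31.25% and 12.5%, against 23.5% and 23.3% of named genes. OsLFL1 of this list, a B3-domain factor related to the Arabidopsis embryo regulators LEC2 and FUS3, had 1.86, 3.67 and 3.32 in callus, against 0.0575, 0.109 and 0.0742 in root. OsVP1, the B3-domain factor of abscisic acid signalling in seeds and a member of the abscisic acid list, stood at 12, 22.6 and 15.5 in callus, against 0.247, 0.333 and 0.338 in root (log2 change 5.91 ± 0.21). Callus lay above root on every array in both genes. OsWOX11, known from rice crown root growth, averaged 4.56 ± 1.38 in callus and 1.0 ± 0.23 in root, OsWOX9 rose by 2.25 and OsSHR1, a GRAS factor of radial patterning, by 2.23. OsFON1, a receptor kinase that limits the floral meristem, fell by 4.42 to 0.193 ± 0.041 in callus, against 4.57 ± 1.13 in root. The markers OsSERK1 (0.56) and OSH1 (-0.55) did not pass, OSH1 being low in both tissues, at most 0.183 in callus and 0.318 in root.

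Organ patterning regulators were near the shares of all genes, with 19 of 64 up and 15 down (median 0.24). Within the list, 8 of 10 growth-regulating factors rose and 0 fell. OsGRF4, one of them, stood at 5.29, 6.75 and 1.42 in callus, against 0.369, 0.399 and 0.446 in root, and its change of 3.41 was 4.08 without callus replicate 3. Of 7 WOX genes 4 rose and 0 fell, the largest being OsWOX7 (2.65). OsYAB3, a YABBY factor, rose by 3.88.

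The alpha-amylase genes were among the largest rises. RAmy3E stood at 88.4, 66.8 and 12.2 in callus, against 0.175, 0.163 and 0.137 in root (log2 change 8.04 ± 0.42, adjusted p 2.2e-13). With only the 6 arrays in the limma fit, the adjusted p of RAmy3E was 2.1e-06. RAmy3D, which is known to be repressed by sugar in cultured rice cells, had 82.1, 57.8 and 12.4 in callus, against 0.541, 0.869 and 0.826 in root. AMY1A, the amylase that gibberellin induces in the aleurone of germinating seeds, had 26.5, 11.6 and 30.6 in callus, against 0.0848, 0.0651 and 0.119 in root. The arrays of the groups were far apart in these 3 genes, but callus replicate 3 was much lower than the other callus arrays in RAmy3E and RAmy3D, whose changes without it were 8.91 and 6.45. Of 5 amylase genes tested, 4 rose. RAmy3A was the exception to the separation, with 28.3 and 4.40 in 2 callus arrays and 0.115 in the third, below the root arrays (0.181, 0.184 and 0.173); its change of 4.01 lost its call without callus replicate 1 (2.29, adjusted p 0.10).

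Across starch, sucrose and amylase genes, 12 of 33 rose and 7 fell (median 0.41). SS1, a starch synthase, averaged 6.85 ± 0.67 in callus and 0.455 ± 0.050 in root (SD, n = 3 each), a log2 change of 4.07. AGPS2, a subunit of ADP-glucose pyrophosphorylase, which makes the glucose donor of starch, rose by 2.44. OsSUS4, a sucrose synthase, stood at 11.5, 5.68 and 7.53 in callus, against 0.552, 0.626 and 0.809 in root. RASI, an inhibitor of amylase and subtilisin known from the grain, rose by 3.38. In the opposite direction, all 4 cell-wall invertases tested (OsCIN1, OsCIN2, OsCIN4 and OsCIN7) fell, by 2.19 to 2.69, as did the sucrose synthases OsSUS5, OsSUS2 and OsSUS6, the last not called without root replicate 1 or with the larger pseudocount.

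Sugar transport genes were divided, with 6 of 16 up and 7 down (median -0.26). OsSWEET1b, a sugar facilitator, had 33.8, 11.7 and 5.85 in callus, against 0.255, 0.311 and 0.331 in root; its change ran from 4.96 without callus replicate 1 to 6.22 without replicate 3. OsSWEET4, a facilitator known from grain filling, stood at 43.0, 31.0 and 24.9 in callus, against 2.51, 2.72 and 2.59 in root. OsSUT1, the sucrose carrier, rose by 2.13. OsMST3, a monosaccharide carrier, fell to 3.86 ± 1.6 in callus, against 18.5 ± 1.1 in root, and Os11N3 fell by 2.76.

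**Figure D2:**
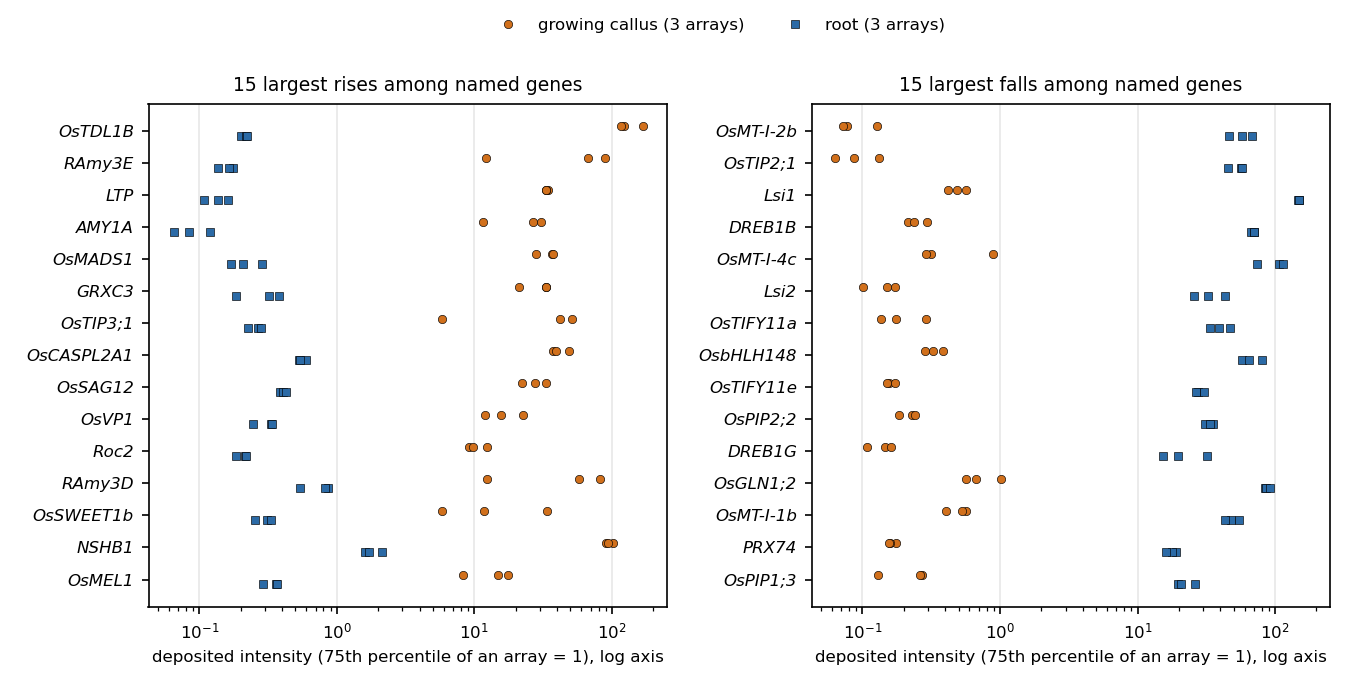
Deposited intensity, on a log axis, in each of the 3 growing callus arrays (circles) and 3 root arrays (squares) for the 15 largest rises (left) and falls (right) among called, named genes whose arrays did not overlap. Growing callus lies above root throughout the left panel and below it throughout the right, and RAmy3E, RAmy3D, OsTIP3;1 and OsSWEET1b have the widest spread among the callus arrays.

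Several transcripts of late seed development varied widely among the callus arrays. EM, a late embryogenesis abundant protein, stood at 66.1, 28.4 and 1.05 in callus, against 0.268, 0.647 and 0.254 in root (log2 change 5.27 ± 0.81, and 4.07 to 7.01 when single arrays were left out, the lowest without callus replicate 1 and the highest without replicate 3). RAB21, a dehydrin induced by abscisic acid, had 92.3, 21.7 and 0.982 in callus, against 0.296, 6.05 and 0.322 in root, so the groups overlapped through callus replicate 3 and root replicate 2. Its change of 4.01 ± 1.09 ran from 2.57 to 5.80 when single arrays were left out, and it lost its call with only the 6 arrays in the fit (adjusted p 0.051). RAB16B, LEA19 and the seed-type aquaporin OsTIP3;1 had the same order as EM and RAB21, with callus replicate 1 highest and replicate 3 lowest: RAB16B at 46, 10 and 1.23, LEA19 at 42.2, 19.9 and 6.81 and OsTIP3;1 at 51.2, 42.0 and 5.79. The change of OsTIP3;1 was 6.04 without callus replicate 1 and 7.60 without replicate 3, and that of LEA19 was 3.01 without root replicate 1 and 4.88 without root replicate 2. Root replicate 2 was the highest root array in RAB16B (1.69), LEA19 (6.04) and EM. RAB16B therefore overlapped between the groups as well, and its change of 4.63 ran from 3.41 to 5.97 when single arrays were left out. The excess of poly(A) controls was in callus replicate 2, which lay between the other callus arrays in these genes; the cause of the spread was not tested.

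**Figure D3:**
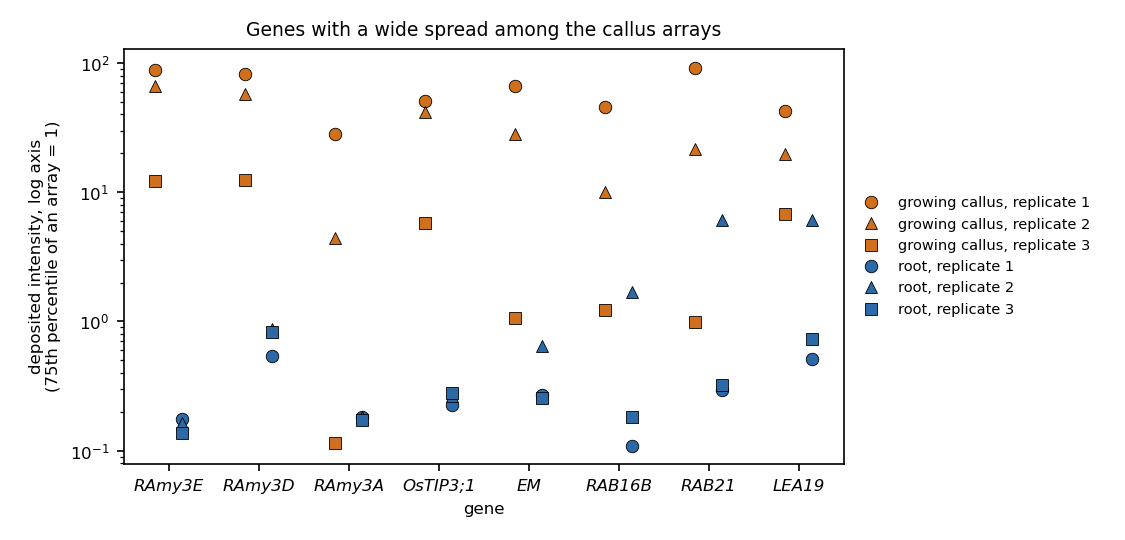
Deposited intensity, on a log axis, of 8 genes in growing callus (left of each pair) and root, with a symbol for each replicate. In growing callus, replicate 3 (square) is the lowest array in all 8 genes, and RAB16B, RAB21 and RAmy3A overlap with root.

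The abscisic acid and late embryogenesis list as a whole had 7 of 37 genes up and 13 down (median -0.77). The rises were OsVP1, EM, RAB16B, RAB21, LEA19, OsDREB2D and the abscisic acid hydroxylase OsABA8ox2, whose arrays overlapped (4.95, 0.854 and 0.243 in callus, against 0.482, 0.478 and 0.396 in root). The change of OsABA8ox2, 1.46, lost its call without callus replicate 1 (0.35, adjusted p 0.39), without root replicate 3, without quantile normalization and with only the 6 arrays in the fit (adjusted p 0.15). The largest falls were 4 of the 5 DREB1 genes, factors known from the cold response. DREB1B stood at 0.215, 0.237 and 0.293 in callus, against 66.6, 69.8 and 70.3 in root (log2 change -7.98 ± 0.33, adjusted p 3.8e-15). DREB1G fell by 7.02, DREB1A by 5.47 and OsDREB1E by 5.40, with no overlap of the arrays, while DREB1C (0.36) was low in both tissues. OsBZIP23, a factor of abscisic acid signalling under drought, fell to 2.74 ± 0.51 in callus, against 16.3 ± 2.5 in root. OsABA8ox1, a second hydroxylase, fell by 3.13.

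Aquaporins were mostly lower in callus. Of 24 genes, 14 fell, 2 rose and 8 were not called, with a median of -1.51. OsTIP2;1, a water channel of the vacuole, stood at 0.0634, 0.132 and 0.0869 in callus, against 57.0, 57.9 and 45.6 in root (log2 change -8.89 ± 0.80, adjusted p 1.8e-09). Of 10 plasma membrane PIP genes, 6 fell and 0 rose. OsPIP2;2 stood at 0.230, 0.185 and 0.239 in callus, against 35.1, 30.8 and 33.5 in root, OsPIP1;3 fell by 6.48 and OsPIP1;2 averaged 3.04 ± 0.12 in callus and 75.2 ± 2.7 in root.

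Not all abundant aquaporins followed. OsPIP2;1 averaged 41.5 ± 12.5 in callus and 42.6 ± 3.7 in root, a change of -0.22 that did not pass, and OsTIP2;2 (0.40) did not pass either. OsPIP1;1 (-0.76) had non-overlapping arrays but missed the 2-fold limit. The 2 rises were both TIP3 genes, a subgroup known from seeds: OsTIP3;1 by 6.62, and OsTIP3;2 by 1.35, the second at a low level, 0.438 ± 0.141 in callus and 0.218 ± 0.089 in root with overlapping arrays, and not called with the larger pseudocount or without quantile normalization.

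Lsi1 and Lsi2, which carry silicon, had the 2 largest falls of the mineral transport list. Lsi1, the silicon influx channel of root cells, stood at 0.486, 0.417 and 0.564 in callus, against 149, 146 and 150.3 in root (log2 change -8.16 ± 0.43). Lsi2, the exporter that works with it, had 0.173, 0.151 and 0.102 in callus, against 32.7, 25.7 and 43.2 in root. Lsi6, the channel known from silicon distribution in the shoot, fell by 5.04. In all 3 genes every callus array lay far below every root array.

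Of 107 genes of mineral transport and iron, 36 fell, 12 rose and 59 were not called, and the median was -0.36. OsPHO1;2, which loads phosphate into the xylem, had 0.163, 0.182 and 0.330 in callus, against 20.3, 14.2 and 26.4 in root. OsNramp5, the main manganese and cadmium uptake transporter, averaged 0.203 ± 0.020 in callus and 6.56 ± 0.65 in root. OsPht1;2, a phosphate transporter, had a change of -4.07 ± 0.13, and 5 of 7 Pht1 genes fell. Ammonium transporters fell in 5 of 8 genes, among them OsAMT1;2 (-4.12), and OsHAK1, a high-affinity potassium transporter, stood at 1.95 ± 0.21 in callus and 27.9 ± 6.2 in root. STAR2, a part of the transporter for aluminium tolerance, fell by 5.21.

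The largest of the 12 rises were in the zinc transporter family. OsZIP8 stood at 4.92, 7.49 and 3.80 in callus, against 0.326, 0.306 and 0.273 in root. OsZIP4 rose by 3.18, OsNAAT1, an enzyme of the iron chelator deoxymugineic acid, by 2.38, and IDEF1, a regulator of iron deficiency genes, by 2.07. OsNAS3, a nicotianamine synthase, averaged 21.7 ± 14.6 in callus and 4.58 ± 0.54 in root. OsIRT1, an iron transporter and root marker, did not pass (-0.35).

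In nitrogen assimilation 3 of 9 genes rose and 2 fell, and the cytosolic glutamine synthetases moved apart. OsGLN1;2 stood at 0.562, 0.673 and 1.02 in callus, against 84.8, 85.3 and 91.6 in root (log2 change -6.83 ± 0.25). GLT2, a glutamate synthase that uses NADH, fell by 5.66. OsGLN1;3 had 2.02, 2.26 and 2.93 in callus, against 0.562, 0.744 and 0.424 in root, and NIA1, a nitrate reductase, rose by 1.98. OsGLN1;1 (-0.98) just missed the fold limit.

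Metallothioneins, small cysteine-rich proteins that bind metals, fell in 5 of 7 genes (median -3.22). OsMT-I-2b had 0.128, 0.0766 and 0.0726 in callus, against 67.8, 57.0 and 46.4 in root (log2 change -9.0 ± 0.38, adjusted p 7.0e-15). OsMT-I-4c had 0.315, 0.884 and 0.289 in callus, against 107, 114 and 73.9 in root. OsMT-I-1b fell by 6.53. OsMT-I-2c went the other way, at 172 ± 29.7 in callus and 78.6 ± 14.2 in root (change 1.18), and OsMT-2 did not pass (-0.21). With the list as first written, before genes of other functions were removed by name, 7 of 15 fell, 3 rose and the median was -0.27.

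**Figure D4:**
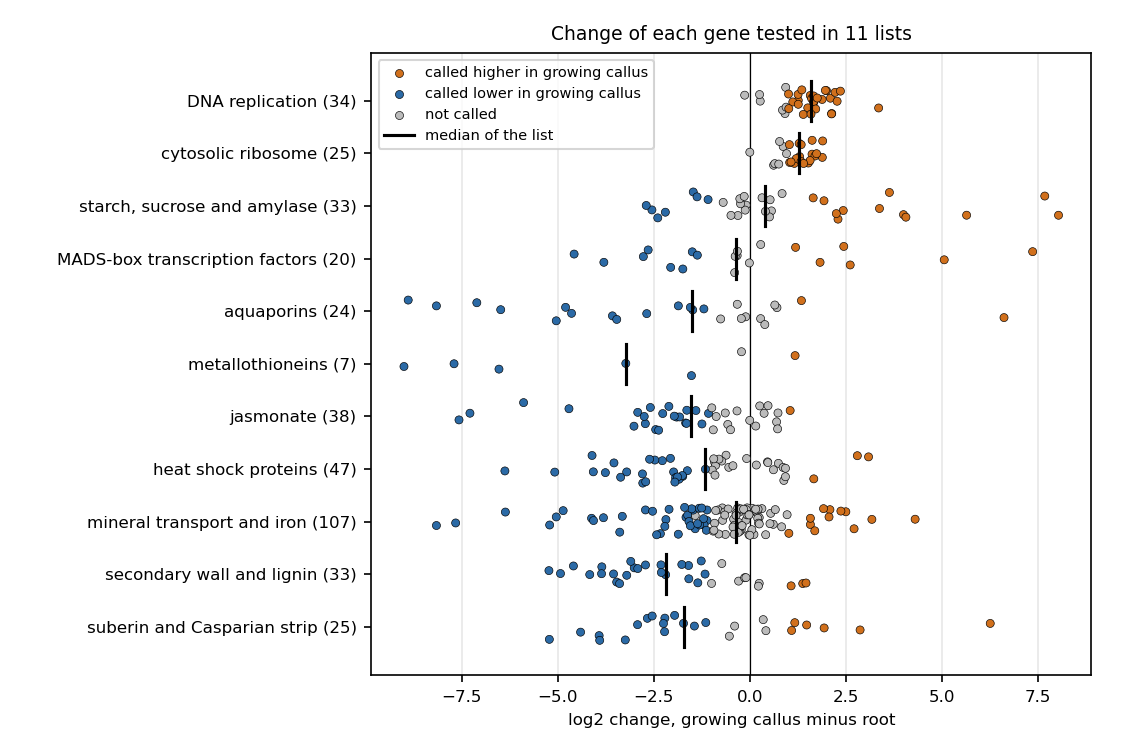
Log2 change, growing callus minus root, of every tested gene in 11 lists (number in brackets), coloured by its call, with a bar at the list's median. Replication and ribosome genes cluster between about 1 and 2, whereas aquaporins, metallothioneins and mineral transporters spread down to -8 or -9 with 2, 1 and 12 rises among them.

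Of 33 genes of lignin and of the secondary wall, 23 fell and 3 rose (median -2.19). The 3 cellulose synthases of secondary walls stood apart without overlap: OsCesA4 averaged 0.531 ± 0.025 in callus and 4.21 ± 0.76 in root, OsCesA7 0.323 ± 0.078 in callus and 6.34 ± 2.08 in root, and OsCesA9 0.249 ± 0.024 in callus and 2.34 ± 0.26 in root. BC1, a protein needed for cellulose assembly in mechanical tissue, fell by 4.59, PAL06, a phenylalanine ammonia-lyase, by 5.23, and LAC3, a laccase, by 4.93. The list as first written also held genes of other kinds, chiefly CCCH zinc finger proteins, and gave 28 falls and 14 rises among 82 genes with a median of -0.10.

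Primary wall and callose genes fell in 18 of 46 cases and rose in 5 (median -0.53). Of the cellulose synthases of primary walls, OsCesA1 averaged 13.9 ± 1.9 in callus and 12.8 ± 1.1 in root (change 0.09) and OsCesA5 had a change of 0.02; neither was called. OsCesA3, OsCesA8 and OsCesA6 fell by 1.29, 1.22 and 1.76, and OsCesA2 rose by 2.01. OsCslF6, which makes mixed-linkage glucan, stood at 1.3, 1.11 and 1.42 in callus, against 7.06, 6.58 and 6.32 in root. Among expansins and xyloglucan enzymes, 5 of 26 rose and 10 fell. OsEXP7, an expansin, was the largest rise, at 69.9, 71.5 and 57.0 in callus, against 1.78, 1.93 and 1.0 in root, while OsEXP3 fell by 4.06 and OsEXPB2 by 3.76.

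The list of 25 suberin and Casparian strip genes was drawn by name, and 22 of them were CASP and CASPL family members. Of the 25, 15 fell and 6 rose (median -1.72), the family giving 14 of the falls and 4 of the rises. A part in the strip or in suberin was not tested for the CASPL genes. OsCASP1, the scaffold protein of the Casparian strip, stood at 0.230, 0.303 and 0.226 in callus, against 2.47, 1.67 and 1.89 in root. OsABCG5, a transporter needed for suberin in the root exodermis, fell by 3.24. All 7 genes of the CASPL1 group fell, by 1.14 (OsCASPL1U2, not called with the larger pseudocount) to 5.22 (OsCASPL1C1). OsCASPL2A1, by contrast, had 37.4, 48.8 and 39.0 in callus, against 0.531, 0.598 and 0.537 in root (change 6.27 ± 0.16), and OsCASPL2B1 rose by 2.88. The list as first written gave 15 falls and 9 rises among 34 genes, with a median of -0.40.

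Jasmonate genes were lower in callus: 22 of 38 fell and 1 rose (median -1.52). Of 13 TIFY and JAZ genes, repressors whose transcripts rise when the hormone is perceived, 10 fell and 0 rose. OsTIFY11a stood at 0.137, 0.174 and 0.288 in callus, against 33.8, 47.0 and 39.3 in root, and OsTIFY11e at 0.157, 0.150 and 0.171 in callus, against 27.7, 30.4 and 26.4 in root. OsTIFY11b fell by 5.89. Callus and root were separated without overlap in these genes. AOS1, an allene oxide synthase of the hormone's synthesis, fell by 4.71 to 0.327 ± 0.012 in callus, against 9.72 ± 3.09 in root, and OsbHLH148, a factor that binds JAZ proteins, fell by 7.53. The rise was OsOPR8 (1.06), not called without root replicate 1, with the larger pseudocount or without quantile normalization. Root was not alone in the high level, since OsTIFY11a averaged 27.9 in shoot and 9.97 in young leaf.

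The heat shock list held heat shock proteins and also heat shock transcription factors. Of its 47 genes, 24 fell and 3 rose (median -1.15), or 5 rose without callus replicate 3 or without root replicate 1. Of 18 small heat shock proteins, 13 fell. OsHsp18.1 stood at 0.568, 0.407 and 1.27 in callus, against 46.8, 63.4 and 68.9 in root, OsHsp17.4 fell by 5.07 and CLPB1, a disaggregating chaperone, by 4.07. The 3 rises were OsHsp26.2 (3.10) and the factors OsHsf-25 (2.81) and OsHsf-01 (1.67). The factors OsHsf-14 (-3.36) and OsHsf-24 (-3.20) were among the falls. Of 6 WRKY factors matched by name 4 fell and 0 rose: OsWRKY71, OsWRKY24, OsWRKY62 and OsWRKY76, by 3.73 to 4.5. PRX74 and PRX112, the 2 class III peroxidases matched by name, fell by 6.5 and 6.25. Genes with only a locus number were not searched for either family, so these counts do not describe the whole families.

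Auxin genes rose in 22 of 59 cases and fell in 12 (median 0.54). ARF3, an auxin response factor, stood at 10.6, 11 and 13.5 in callus, against 0.683, 0.710 and 0.773 in root (log2 change 4.00 ± 0.17, adjusted p 6.0e-15), and OsETTIN1 and OsETTIN2, also of that family, rose by 2.76 and 2.69. OsGH3-4, of the family that conjugates auxin, had 8.40, 4.45 and 7.30 in callus, against 0.413, 0.409 and 0.533 in root. DAO, an enzyme that oxidises auxin, rose by 2.50. Of 5 PIN efflux carriers, 4 fell and 1 rose: OsPIN9 averaged 0.175 ± 0.023 in callus and 13.5 ± 3.9 in root, and OsPIN3a 2.11 ± 0.69 in callus and 0.309 ± 0.039 in root. The IAA repressors were divided, with 8 of 25 up and 6 down.

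Cytokinin genes had shares near those of all genes, with 5 of 28 up and 7 down (median -0.29). The LOG family, which releases active cytokinin, was split: LOGL3 averaged 2.58 ± 0.79 in callus and 0.418 ± 0.089 in root, while LOGL9 fell by 3.77. The oxidase OsCKX5 fell by 3.30 and OsCKX3 rose by 2.03. Of 13 gibberellin genes 3 rose and 2 fell (23.1% and 15.4%, against 23.5% and 23.3% of named genes). Without callus replicate 1 or replicate 2, 1 fell. Those that rose were GA20OX3 by 2.51, OsKS1 by 1.58 and OsKO1 by 1.37, all enzymes of synthesis. In ethylene genes, 5 of 20 rose and 7 fell (25% and 35%). ACO1, which makes the hormone, stood at 11.7 ± 2.1 in callus and 1.47 ± 0.44 in root.

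Low-oxygen genes did not move together. NSHB1, a hemoglobin of non-symbiotic type, averaged 95.6 ± 6.1 in callus and 1.81 ± 0.27 in root (SD, n = 3 each; log2 change 5.59 ± 0.26). NSHB2, of the same family, rose by 5.04, and the probe set of NSHB1 can also detect related transcripts. Adh2, an alcohol dehydrogenase of fermentation, fell by 2.73 to 23.8 ± 3.6 in callus, against 146 ± 11 in root. None of the 3 pyruvate decarboxylase genes passed.

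Of 16 pathogenesis-related genes, 7 rose and 2 fell (median 0.80). The chitinases OsChia1a, at 26.9, 20.4 and 26.0 in callus against 1.54, 3.79 and 2.84 in root, and OsChia1c (2.92) rose, and Cht6 (-3.11) and OsChia2a (-2.89) fell. As first written the list gave 8 rises and 5 falls in 27 genes. Of 5 lipid transfer proteins 3 rose, led by LTP at 34.4, 32.9 and 33.3 in callus, against 0.161, 0.138 and 0.107 in root. GRXC3, a glutaredoxin, rose by 6.79 and OsSAG12, a cysteine protease, by 6.21. Of 24 beta-glucosidases 6 rose and 7 fell (25% and 29.2%), near the 23.5% and 23.3% of named genes. Of 13 ABC and multidrug transporters 1 rose and 6 fell (7.69% and 46.2%). Of 15 diterpenoid phytoalexin genes 0 rose and 4 fell (0% and 26.7%), or 2 fell without callus replicate 1 or without root replicate 2. Of 16 chromatin and DNA methylation genes 1 rose and 15 were not called; in 5 of the 6 settings that leave out 1 array 2 rose.

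The named genes were then read in the other groups. All 15 rises averaged at least 1 in callus after 8 days of regeneration, whereas 10 of them were under 1 in both shoot and young leaf. Since 1 is the 75th percentile of each array, most probe sets lie under 1 in any organ. The share over all genes was not computed, so these counts do not set the named genes apart. LTP (20.8), Roc2 (3.85) and OsCASPL2A1 (4.29) were at 1 or more in young leaf and also in shoot. Of the 15 falls, 6 averaged at least 1 in callus at 8 days, such as OsMT-I-2b with 4.45 and OsPIP2;2 with 2.19, and 7 were at 1 or more in both shoot and young leaf. OsMT-I-2b averaged 151 in shoot. Lsi2, OsMT-I-4c, OsTIP2;1 and OsMT-I-1b were under 1 in both, and Lsi1, at 149 ± 2.1 in root, averaged 3.35 in shoot and 1.77 in young leaf. No test of these differences between organs was made.

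**Figure D5:**
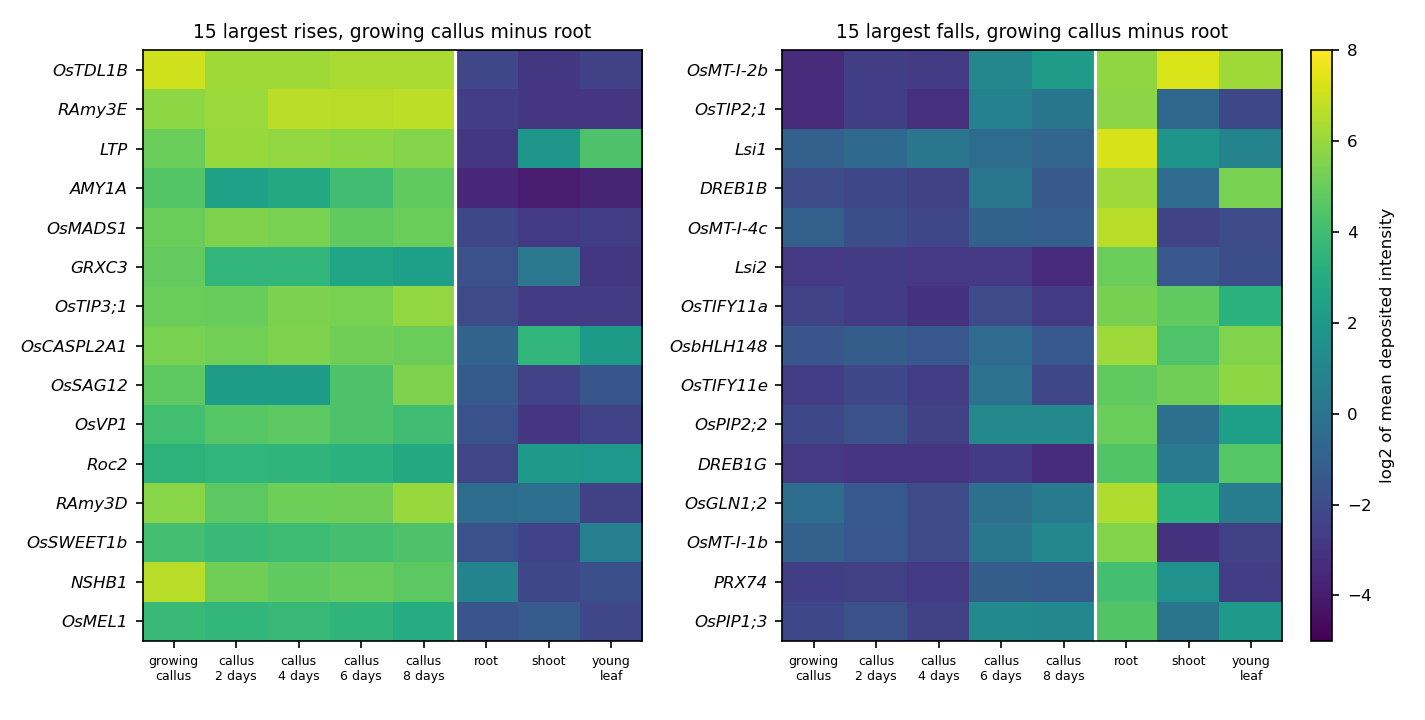
Log2 of the mean deposited intensity of the 15 largest rises (left) and falls (right) in the 8 groups, with callus groups before the white line and organs after it. All 15 rises are at 1 or more in callus at 8 days, and 7 of the falls are at 1 or more in both shoot and young leaf.

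Many of the largest changes were in genes with only a locus number. LOC4350388, the largest fall, stood at 0.141, 0.193 and 0.180 in callus, against 174, 170.4 and 173 in root (log2 change -9.86 ± 0.27). LOC4347027 fell by 8.52 and was low in shoot and young leaf too, whereas LOC4335417, which fell by 8.53, averaged 87.5 in shoot and 66.0 in young leaf. LOC4351314 rose by 9.23, LOC4344619 by 9.09 and LOC4327617 by 9.06. LOC4327617 averaged 92.8 in shoot, against 0.213 in young leaf.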

How the data were processed

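Rice Genome Array samples were deposited as 1 linear intensity per probe set, which the authors had scaled so that the 75th percentile of each array is 1, as the values show; the submitters' processing notes name GCOS 1.3. How probes were summarised and background corrected is not given in the sources used here. No detection call was used, and the number of arrays limits the precision. Of 57381 probe sets, 187 controls were left out. Array medians ranged from 0.220 to 0.355 (ratio 1.61, over the preset limit of 1.5), so log2(intensity + 0.0274), with a pseudocount of 10% of the overall median, was quantile normalized. A probe set was tested when it exceeded its array's median in at least 3 of 25 arrays (37218 passed). A mean per group was fitted to all 25 arrays in 8 groups with limma 3.58.1 (17 residual and 5.40 prior degrees of freedom), and calls required a Benjamini-Hochberg adjusted p under 0.05 and a 2-fold change. All adjusted p-values in the text are from limma over all tested probe sets. The labels call the samples biological replicates without naming separate plants or calli. Standard errors and p-values measure the spread between arrays, pooled over all 8 groups. They can understate the spread in genes that vary widely among the callus arrays.

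GEO's platform annotation gave 22436 probe sets 1 gene, 95 several and 34663 none; 17905 genes were matched to RefSeq (ASM3414082v1), and 2458 had a name other than a locus number, as symbol or synonym. A gene was read through its probe set with the highest mean over the 6 arrays. Of 2686 genes with several probe sets, 32 had opposite calls. Probe sets ending in _s_at, _x_at or _a_at, among them those of RAmy3E, OsTIP3;1, LTP, GRXC3, OsCASPL2A1, OsTIP2;1, OsPIP2;2 and OsTIFY11b, can detect related transcripts. The genes named in the text were the 15 largest rises and falls of named, called genes without overlap (1 probe set a gene), 3 locus-only genes each way, the largest changes of each list and the markers, with further list members chosen after their values were seen. Lists, members and this comparison were chosen with earlier results of these data known. Lists were defined by gene-name patterns; 215 members of 29 of the 37 lists that the patterns caught by name only were removed, 4 of them after values were seen. Subfamilies (such as PIP or JAZ) were also drawn after values were seen. The CYCB1-1 marker matched 2 genes. The test was checked on simulated data, and the alternatives were other pseudocounts, filters, thresholds, no quantile normalization, only the 6 arrays, the replicate block and leaving out arrays.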

Additional observations from a re-analysis of the deposited data

How the results depend on the processing

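Counts of probe sets higher and lower in callus kept within 1.5 times the reported 6678 and 5965 under every alternative except the thresholds: adjusted p alone gave 12726 higher and 9967 lower, and a fold of at least 4 gave 1749 and 2750. Leaving out single arrays gave 6528 to 6890 higher and 5851 to 6117 lower. The larger pseudocount gave 5514 and 5167, and no filter 6702 and 6165. With the replicate number as a replicate block the counts were 6681 and 5972. Same-numbered callus and root arrays did not deviate together (correlations -0.034, -0.046 and -0.009). No pairing by number was seen, but 3 arrays a group cannot exclude it. Over 197 named results and 16 alternatives, 3041 of 3147 values kept their side of the threshold, 91 lost the call and 15 gained it. Of 3007 values of called results 0 changed sign, and of 140 values of results that were not called 6 did. With only the 6 arrays, other filters, the replicate block or other thresholds, the log2 change was that of the main fit. Its sign could not change in those settings. All 36 of the largest named changes kept their call, but they had been picked for large, called changes. Chosen after the data were seen, the lists with no member removed gave, besides the values beside each list, 17 rises and 10 falls in 52 starch, sucrose and amylase genes, 15 and 40 in 118 mineral genes, 5 and 25 in 56 heat shock genes, 3 and 14 in 28 aquaporins, 5 and 4 in 14 low-oxygen genes, 2 and 4 in 17 diterpenoid genes, 3 and 3 in 32 chromatin genes, 18 and 1 in 28 ribosome genes, 5 and 4 in 19 nitrogen genes, 7 and 18 in 50 primary wall genes, and 23 and 16 in 73 organ patterning genes. With only the 4 late removals put back, starch had 12 rises and 8 falls in 34 genes, mineral transport 13 and 36 in 108, gibberellin 4 and 2 in 14 and the embryo list 5 and 2 in 17. Signal near the bottom of the scale limits how well the size of a change is known in genes low in 1 tissue.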
